A study of Mus musculus with 57 samples.

Results

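The genes described here are 3 beta subunits of the sodium pump (Atp1b1, Atp1b2 and Atp1b3) and 3 FXYD proteins that bind the pump (Fxyd1, Fxyd6 and Fxyd7). They are defined by gene symbol, and each matched 1 of the 21118 rows of the count table, so all 6 were measured. The study measured ribosome-bound messenger RNA of cortical astroglia by translating ribosome affinity purification (TRAP), in which messages are pulled out of a tissue homogenate together with a tagged ribosomal protein. All 53 mice were of the C57BL/6 strain and carried Aldh1l1-L10-GFP, a transgene in which regulatory sequence of the astrocyte gene Aldh1l1 drives the ribosomal protein L10 with a green fluorescent protein (GFP) tag. The 6 ages were the postnatal days P1, P4, P7, P14 and P35, and adult, for which the labels give no age in days. Females numbered 4, 4, 8, 5, 3 and 4 at these ages and males 4, 4, 4, 5, 3 and 5, and no treatment is named. The tag marks cells in which the Aldh1l1 sequence is active, but the libraries also held markers of neurons and myelin, described below. RNA of unselected cortex was not analysed here.

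The sodium pump, or Na,K-ATPase, moves sodium out of a cell and potassium into it against their gradients and spends ATP to do so. A catalytic alpha subunit carries the ions, a beta subunit brings the alpha subunit to the membrane and tunes its affinity for potassium, and a small single-span FXYD protein may join them and alter the affinity for sodium or potassium. In the brain, astrocytes use the pump to clear potassium released by active neurons and to maintain the sodium gradient that drives glutamate uptake.

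The FXYD proteins are named after a short signature just outside the membrane, and the coding bases of that signature are shown because they define which genes belong to the family. The sequences below run 5′ to 3′ along the coding strand of 1 GENCODE M21 transcript per gene, with the codons of the signature in capitals.
Fxyd1: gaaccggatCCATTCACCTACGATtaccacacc
Fxyd6: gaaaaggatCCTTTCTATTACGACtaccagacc
Fxyd7: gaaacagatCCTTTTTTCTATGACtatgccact
The stretches of Fxyd1 and Fxyd6 shared 25 of 33 bases, those of Fxyd6 and Fxyd7 22, and those of Fxyd1 and Fxyd7 21. Within the 15 capital bases the same pairs shared 10, 11 and 9. The 3 proteins are small, with coding lengths of 276 bases in Fxyd1, 282 in Fxyd6 and 240 in Fxyd7, stop codon not counted.

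Libraries held between 14768178 and 48541139 counts, with a median of 24033399, and the lowest count of any of the 6 genes in any library was 10, for Fxyd1. P1 female 4, P7 female 40 and P14 male 4 had at least 10 counts in 10085, 13834 and 14530 genes, against 15531 or more elsewhere. CPM is a gene's count relative to the scaled total of its library. P1 female 4 had 10.1 CPM of Aldh1l1 itself, and all others had 32.8 to 423 CPM. In 12 libraries the summed level of 4 Y-linked genes went against the labelled sex or lay between the sexes (1.90 to 194 CPM in 7 female and 0 to 17.2 CPM in 5 male libraries, against 0 to 0.965 CPM in the other females and 73.1 to 223 CPM in the other males), and these are called the libraries of doubtful sex. P1 female 4 is not among them, with 0 CPM of these genes, but it also had only 0.062 CPM of Xist. The libraries also fell into 6 replicate sets, numbered 1, 2, 3, 4 and 6 in their names, plus a set S. Set S held 4 libraries, all of P7, that were sequenced in the second run alone. Each age was therefore compared within sets, in 1 edgeR model with the 12 sex-by-age groups and the set as terms.

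Between P1 and adulthood, 4 of the 6 messages rose and 1 fell. Fxyd1 and Atp1b2, the FXYD protein and the beta subunit with the largest differences, were 12.2-fold and 7.15-fold higher in adults, Atp1b1 and Fxyd7 were 2.65-fold and 2.62-fold higher, and Fxyd6 was at 0.354 of its P1 level. Atp1b3 was 1.27-fold higher by estimate and did not pass the threshold. Of all genes tested, 41.3% passed in this comparison, 21.8% as higher and 19.5% as lower. The median log2 difference of all genes was 0.06, and 0.11 with DESeq2 size factors. Of the 6 genes, all passed the test of any age difference over the 6 ages, as did 43.5% of all genes. In the mean of P14, P35 and adult against the mean of P1, P4 and P7, all 6 passed, against 48.5% of all genes.

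**Figure D1:**
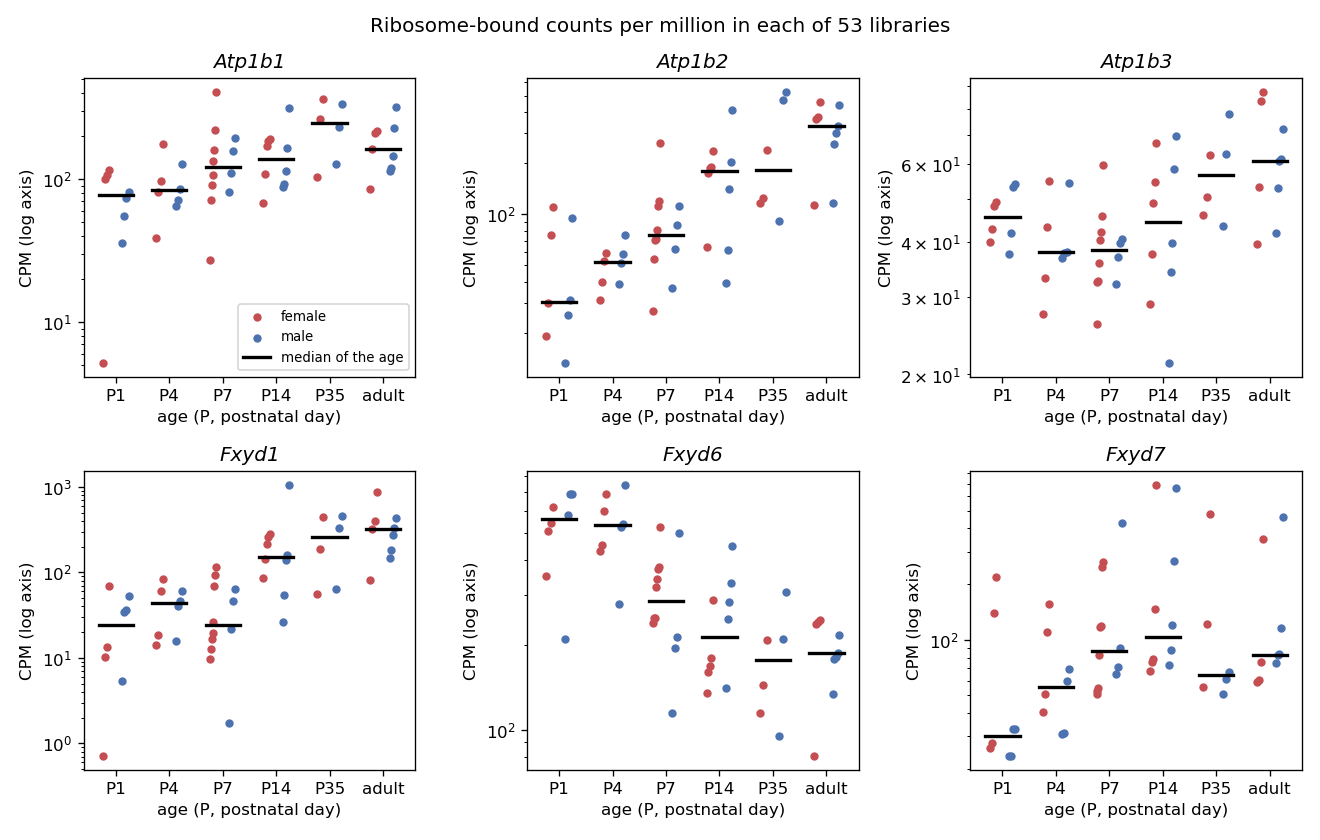
Each point is 1 library, with CPM on a log axis against age, females to the left of males and the black line at the median of the age. Atp1b2 and Fxyd1 had no adult library (114 and 81.3 CPM at the lowest) as low as the highest P1 library (110 and 69.4 CPM), and Fxyd6 was highest at P1 and P4. Of all genes, 3.58% had every adult library above every P1 library.

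Atp1b2 encodes the beta 2 subunit, known as AMOG, the adhesion molecule on glia. In adult libraries it had 114 CPM at the lowest, 334 CPM at the median and 463 CPM at the highest, against 13.2, 30.4 and 110 CPM in P1 libraries. No adult library overlapped the P1 range, a separation in the same direction that 3.58% of all genes showed. The fitted log2 difference, adult minus P1, was 2.84 ± 0.29 (SE, 9 adult and 8 P1 libraries, edgeR adjusted p = 1.27e-10), a fold of 7.15 with a 95% interval from 4.79 to 10.7. Its median ran 30.4, 52.4, 75.6, 181, 181 and 334 CPM over P1, P4, P7, P14, P35 and adult. The order of the ages by mean was the order of age, but the spread within P35 was wide, at 90.8 to 527 CPM, and no neighbouring pair of ages passed the test. The gene lies on the minus strand of chromosome 11 at 69599736-69605942 (GRCm38).

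Atp1b1 encodes beta 1, the most widely expressed beta subunit and one found in neurons as well as glia. Adult libraries had 85.0 CPM at the lowest, 162 CPM at the median and 322 CPM at the highest, against 5.13, 78.0 and 116 CPM in P1 libraries. The ages overlapped, with 7 of 9 adult libraries above the highest P1 library. The log2 difference was 1.40 ± 0.28 (edgeR adjusted p = 6.19e-05), and it was 1.19 without P1 female 4, the library that held the lowest value. Its median ran 78.0, 83.5, 122, 139, 249.5 and 162 CPM over the 6 ages and was highest at P35. Adult minus P35 was -0.19 (95% interval -0.78 to 0.40). Atp1b1 occupies 164437109-164458355 on the minus strand of chromosome 1 and shares 575 exon bases, 18.7% of its exon length, with Nme7 on the other strand. Nme7 averaged 50.4 CPM in adults and 38.9 CPM at P1 (log2 difference 0.23, edgeR adjusted p = 0.48), and since the strand setting of the counting is not given in the sources used here, reads of the shared bases cannot be assigned.

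Atp1b3 encodes beta 3, a broadly expressed subunit. It moved least of the 6, with 39.6 CPM at the lowest, 61.1 CPM at the median and 87.4 CPM at the highest in adults, against 37.5, 45.6 and 54.1 CPM at P1. The ranges overlapped, and 5 of 9 adult libraries lay above all P1 libraries. The log2 difference was 0.35 ± 0.15, with an edgeR adjusted p of 0.0548 and a 95% interval from 0.05 to 0.64. It passed without adult male 2 (0.38), P1 female 6 (0.42) or P1 male 4 (0.39). Its lowest median was 37.9 CPM at P4, with 38.3 CPM at P7, and the later ages gave 44.3 CPM at P14, 56.7 CPM at P35 and 61.1 CPM in adults. In the mean of the 3 later ages against the mean of the 3 earlier ages Atp1b3 passed, at 0.29 ± 0.09 (edgeR adjusted p = 0.00677), but not without set 1 (0.19, adjusted p = 0.194) or set 2 (0.22, adjusted p = 0.0938). The age test (edgeR adjusted p = 0.00775) did not pass without the libraries of doubtful sex (0.0893) or without set 1 (0.226). The gene lies at 96332655-96364442 on the minus strand of chromosome 9. A processed pseudogene, Gm1848, matched 805 of its bases at 96.4% identity, and averaged 1.92 CPM.

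Fxyd1 encodes phospholemman, a substrate of protein kinases that lowers the pump's affinity for sodium until it is phosphorylated, and which in brain is known from choroid plexus, cerebellum and glia. Adult libraries had 81.3 CPM at the lowest, 319 CPM at the median and 877 CPM at the highest, against 0.703, 23.9 and 69.4 CPM in P1 libraries. The ages did not overlap, a separation in the same direction that 3.58% of all genes showed. The log2 difference was 3.61 ± 0.50 (edgeR adjusted p = 1.43e-07), a fold of 12.2 with a 95% interval from 6.08 to 24.7. Without P1 female 4, which held 0.703 CPM, it was 3.36. Its median ran 23.9, 43.7, 24.2, 151, 258 and 319 CPM over the 6 ages, with the medians of P14, P35 and adult above the others. These medians take no account of the set. Within sets, P7 minus P1 was 1.15 (95% interval 0.17 to 2.12, edgeR adjusted p = 0.114). P14 minus P7 was the only step between neighbouring ages that any of the 6 genes passed, at 1.93 ± 0.48 (edgeR adjusted p = 0.015), against 3.3% of all genes. P14 libraries had 26.6 to 1050 CPM and P7 libraries 1.74 to 115 CPM, so the ages overlapped, and 7 of 10 P14 libraries stood above the highest P7 library. The step was 1.43 (edgeR adjusted p = 0.0808) without P14 male 4, the library at 1050 CPM, and 1.92 (0.0879) without P7 male 2.

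Fxyd6 encodes phosphohippolin, an FXYD protein abundant in brain. It was the only one of the 6 that fell. Adult libraries had 80.2 CPM at the lowest, 187 CPM at the median and 246 CPM at the highest, against 210.1, 562 and 691 CPM at P1. In 5 of 9 adult libraries the value was below the lowest P1 library (P1 male 3, 210.1 CPM). The log2 difference was -1.50 ± 0.18 (edgeR adjusted p = 7.99e-09). The median ran 562, 533, 286, 214, 177 and 187 CPM over the 6 ages. P4 minus P1 was 0.04 (95% interval -0.34 to 0.41) and adult minus P35 was -0.02 (-0.41 to 0.38), so the fitted fall lay between P4 and P35. Fxyd6 lies on the plus strand of chromosome 9 at 45370185-45396159.

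Fxyd7 encodes an FXYD protein of brain that associates with pumps containing beta 1 and alters their potassium affinity. Adult libraries had 58.9 CPM at the lowest, 82.6 CPM at the median and 463 CPM at the highest, against 23.3, 30.2 and 218 CPM at P1. The ages overlapped widely, with only 2 of 9 adult libraries above the highest P1 library. Within sets the log2 difference was 1.39 ± 0.27 (edgeR adjusted p = 6.98e-05), and the high values at both ages came from sets 4 and 6. The medians were 30.2, 55.2, 86.6, 104, 64.1 and 82.6 CPM over the 6 ages, and P14 also had the highest mean, 226 ± 243 CPM (SD, n = 10). P35 minus P14 was -0.65 ± 0.29 with an unadjusted edgeR p of 0.0326 and an adjusted p of 0.283.

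The start regions of Fxyd1 and Fxyd6 are shown because these FXYD genes moved furthest in opposite directions. Both are RefSeq windows on GRCm38.p6 from 250 bases before to 50 after the annotated start, 5′ to 3′ on the gene's strand, with matches on either strand in capitals. The letters searched were a CCAAT box, a TATA box (TATAAA), a GC box (GGGCGG) and part of the NFI factor site (TTGGCA). No match overlapped another. The RefSeq start of Fxyd1 lies inside the longer gene that GENCODE M21 annotates.
Fxyd1, chr7:31054804-31055103, minus strand: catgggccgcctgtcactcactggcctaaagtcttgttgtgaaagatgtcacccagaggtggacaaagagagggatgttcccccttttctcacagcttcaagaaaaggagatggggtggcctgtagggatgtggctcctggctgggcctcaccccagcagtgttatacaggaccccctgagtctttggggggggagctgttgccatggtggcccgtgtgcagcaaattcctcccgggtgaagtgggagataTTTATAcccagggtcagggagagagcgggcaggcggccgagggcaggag
Fxyd6, chr9:45369935-45370234, plus strand: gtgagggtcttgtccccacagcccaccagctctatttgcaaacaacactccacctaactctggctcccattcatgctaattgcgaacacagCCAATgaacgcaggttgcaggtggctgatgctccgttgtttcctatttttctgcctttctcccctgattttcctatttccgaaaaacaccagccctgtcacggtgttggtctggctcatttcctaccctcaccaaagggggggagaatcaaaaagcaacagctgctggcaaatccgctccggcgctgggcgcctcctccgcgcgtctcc
The Fxyd1 window held 1 TATAAA, on the other strand, and the Fxyd6 window 1 CCAAT. Of 32851 windows of the same length, 13.6% held the TATA box letters, 37.4% those of the CCAAT box, 35.7% those of the GC box and 14.1% those of the NFI site. The windows were 58.7% and 54.3% G and C, and the median over all windows was 52.7%.

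Compared with P1, the number of the 6 genes that passed differed between ages, and the genes were not tested against each other. At P4 none passed (0 genes with an unadjusted edgeR p under 0.05, 0 by DESeq2 and 0 by limma voom, against 0.44% of all genes called). Over all genes, 2543 had an unadjusted edgeR p under 0.05 at P4. At P7, 4 of 6 passed, against 12.5% of all genes, namely Fxyd7 at 1.31 ± 0.30, Atp1b2 at 1.20 ± 0.29, Atp1b1 at 1.05 ± 0.30 and Fxyd6 at -0.62 ± 0.20 on the log2 scale. Without set 6, 2 of them passed, Atp1b2 and Fxyd7, and the same held without P7 male 6 alone (edgeR adjusted p = 0.0723 for Atp1b1 and 0.232 for Fxyd6). Fxyd6 at P7 also did not pass without P1 female 6 (0.0869) or P1 male 2 (0.0691), in the additive model (0.0765), without the libraries of doubtful sex (0.0893) or without those whose names carry the other sex's letter (0.106). Fxyd1 was at 1.15 ± 0.48 at P7 by edgeR (adjusted p = 0.114), and it passed there by limma voom (1.57, adjusted p = 0.0326). At P14 all but Atp1b3 passed, against 35.1% of all genes, and Fxyd1 had reached 3.08 ± 0.49 and Atp1b2 2.05 ± 0.28. At P35 all but Atp1b3 passed again, against 37.1% of all genes, with Atp1b1 at 1.59 ± 0.30 and Fxyd6 at -1.49 ± 0.21. At P35, Fxyd7 did not pass without set 6 (0.74, edgeR adjusted p = 0.0606) or set 1 (0.96, 0.109), and Atp1b3 passed by DESeq2 (0.42, adjusted p = 0.02) and with DESeq2 size factors in edgeR (0.41, adjusted p = 0.0359). At P7, Atp1b1 did not pass without set 3 (0.218), Atp1b2 without set 2 (0.0624) and Fxyd6 without set 1 (0.0542) or set 4 (0.0995). These comparisons share the P1 libraries.

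**Figure D2:**
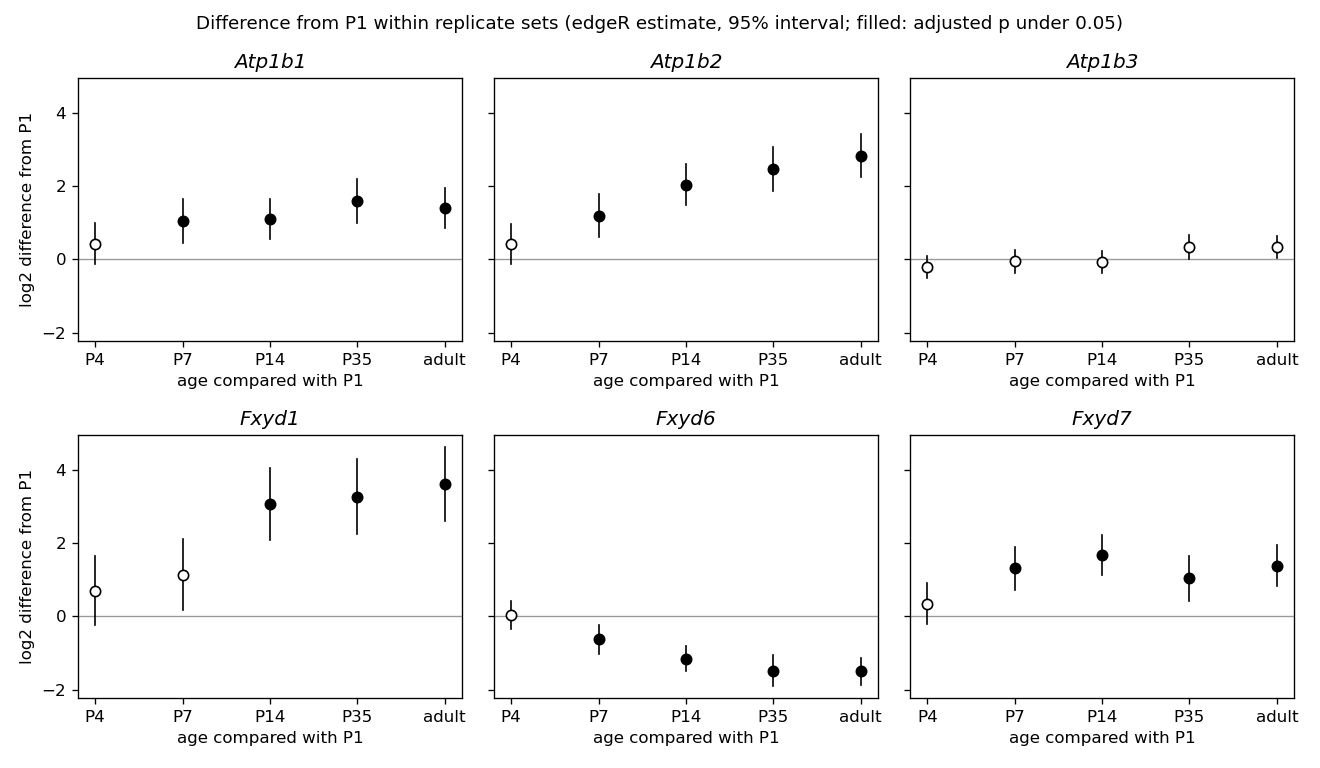
Each panel gives the edgeR log2 difference of P4, P7, P14, P35 and adult libraries from P1 libraries within replicate sets, with 95% intervals, filled where the adjusted p was under 0.05. Fxyd7 (1.31) had the largest difference at P7, and Fxyd1 (3.08) at P14.

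Steps between neighbouring ages, with 6 to 12 libraries an age, gave few calls. The 12 libraries of P7 include the 4 of set S, whose common level is taken up by their set term. In any comparison of P7 with another age, those 4 therefore counted only through the difference between the sexes. In P7 minus P4 no member passed by edgeR, against 1.67% of all genes. Fxyd6 (-0.66), Fxyd7 (0.96), Atp1b2 (0.78) and Atp1b1 (0.62) had unadjusted edgeR p-values under 0.05, as did 2825 of all 21118 genes. By DESeq2 2 members passed and by limma voom 1, and the shares of all genes by those tools are not given here. In P35 minus P14 no member passed by any of these tools, against 1.15% of all genes in edgeR. Atp1b3 (0.40) and Fxyd7 (-0.65) had an unadjusted edgeR p under 0.05, as did 3136 of all genes. In adult minus P35 no member passed by edgeR, DESeq2 or limma voom or had an unadjusted edgeR p under 0.05. For all 21118 genes that step gave 0 calls in edgeR (0%) with 884 genes at an unadjusted p under 0.05, 114 calls in DESeq2 and 0 in limma voom.

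The make-up of the beta and FXYD messages changed with age. Per kilobase of exon, Atp1b2 took 46.4 ± 15.7% of the 3 beta messages in adults and 22.1 ± 15.1% at P1 (SD, n = 9 and 8). The share of Atp1b3 was 16.3 ± 3.28% in adults and 37.2 ± 8.76% at P1, and that of Atp1b1 was 37.3 ± 15.8% in adults and 40.8 ± 18.0% at P1. Among the 3 FXYD messages, Fxyd1 took 39.3 ± 14.3% in adults and 6.19 ± 5.22% at P1, and Fxyd6 took 13.2 ± 4.71% in adults and 59.2 ± 17.2% at P1. Fxyd7 held 47.5 ± 17.7% in adults and 34.6 ± 21.2% at P1, and was largest at P7 with 61.9 ± 17.0% (n = 12). The shares rest on annotated exon lengths, from 693 bases for Fxyd7 to 4107 for Fxyd6, so the levels of the shares depend on them, while differences in ratio between ages do not.

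**Figure D3:**
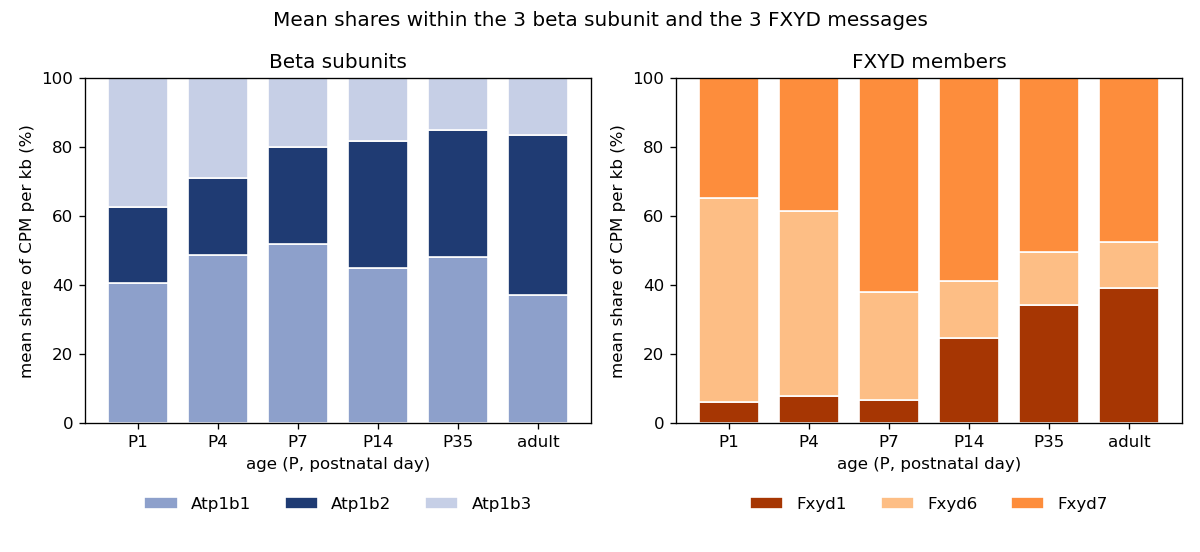
Stacked bars give the mean share of CPM per kilobase of exon (percent, axis from 0) among the 3 beta messages at left and the 3 FXYD messages at right, by age. Fxyd1 widened from P14 onwards to 39.3% in adults while Fxyd6, 59.2% at P1, narrowed to 13.2% in adults.

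The 6 ratios within the beta subunits and within the FXYD genes were tested within sets by an exact permutation test (two-sided, 1296 reassignments, smallest possible p = 0.000772, adjusted over 6 ratios). The log2 ratio of Fxyd1 to Fxyd6 per kilobase lay between 0.62 and 2.79 in adult libraries and between -8.52 and -2.06 in P1 libraries, with no overlap. Its difference within sets was 5.64 (adjusted p = 0.00116). Per kilobase, Fxyd1 exceeded Fxyd6 in no library at P1, P4 or P7, in 8 of 10 at P14, in 5 of 6 at P35 and in 9 of 9 adult libraries. Such counts of libraries above 0, here and for the beta subunits below, depend on the annotated exon lengths. In CPM, not divided by length, the P14 medians were 151 for Fxyd1 and 214 for Fxyd6, and the adult medians 319 and 187. The ratio of Fxyd1 to Fxyd7 differed by 2.72 and that of Fxyd7 to Fxyd6 by 2.93 (adjusted p = 0.00116 each). Without P1 female 4 the ratio of Fxyd1 to Fxyd7 differed by 1.73 and that of Fxyd1 to Fxyd6 by 4.95 (adjusted p = 0.00185 each). Among the beta subunits, Atp1b2 to Atp1b3 differed by 2.51 (adjusted p = 0.00116), with 9 of 9 adult libraries and 3 of 8 P1 libraries above 0. Atp1b1 to Atp1b3 differed by 1.26 (adjusted p = 0.0037), with 9 of 9 adult and 5 of 8 P1 libraries above 0. Atp1b2 to Atp1b1 differed by 1.25 (adjusted p = 0.0262), with values from -1.39 to 1.73 in adults and from -2.90 to 3.47 at P1, and with 6 of 9 adult and 1 of 8 P1 libraries above 0. The value of 3.47 was that of P1 female 4, and the other P1 libraries ran up to -0.19. That last ratio did not pass without P1 male 2 (1.09, adjusted p = 0.0833) or without P1 male 4 (0.99, adjusted p = 0.0571).

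Females and males, as labelled, were not told apart by any of the 6 genes. In the mean over ages no member passed by edgeR, DESeq2 or limma voom, none had an unadjusted p under 0.05, and 0.0284% of all genes (6 genes) passed by edgeR. An unadjusted edgeR p under 0.05 was found there for 453 of all genes. The log2 difference, female minus male, ran from 0.00 for Atp1b1 (95% interval -0.32 to 0.32) to 0.20 for Atp1b2 (-0.12 to 0.52). The interval was widest for Fxyd1, from -0.43 to 0.63. Of the 36 values by gene and age, 2 had an unadjusted edgeR p under 0.05, and none an adjusted one. At each single age, 0 of all 21118 genes passed by edgeR (0%), Y-linked genes included. The same 0% held for the sex difference in adult minus P1 and for sex by age over all ages. The lack of calls for the 6 genes in these comparisons therefore says little about them. Over all genes, 1350 had such an unadjusted p at P1 and 761 at P14. Fxyd6 at P14 had 135, 160, 169, 179 and 288 CPM in females and 140, 248, 285, 331 and 450 CPM in males (log2 difference -0.62, unadjusted edgeR p = 0.0118, adjusted p = 1), and the sexes overlapped. Atp1b2 at P1 had 19.2, 29.8, 75.8 and 110 CPM in females and 13.2, 25.3, 31.0 and 95.2 CPM in males (0.81, unadjusted edgeR p = 0.0447, adjusted p = 0.763). No member passed for a difference between the sexes in adult minus P1, where the estimate furthest from 0 was -0.998 for Atp1b2 (95% interval -2.09 to 0.09), nor over all ages, where Fxyd6 came nearest (unadjusted edgeR p = 0.0615). Leaving out the 12 libraries of doubtful sex gave no member past the threshold in any of these comparisons.

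The replicate sets differed in these messages, with the largest differences in Fxyd7 and Fxyd1. All 6 differed between sets by edgeR, as did 69.1% of all genes, and no gene of the 6 passed in set 2 against set 1. Fxyd7 was 2.60 ± 0.30 higher in set 6 and 1.79 ± 0.27 higher in set 4 on the log2 scale (edgeR adjusted p = 3.61e-09 and 1.95e-05). It held 140 CPM at the lowest, 348 CPM at the median and 687 CPM at the highest in set 6, against 23.3, 55.0 and 83.6 CPM in set 1. Atp1b2 was lower in set 6 (-1.98), set 3 (-1.72) and set S (-1.04), and Fxyd1 in set S (-2.48), set 3 (-2.19) and set 6 (-1.81). Atp1b1 was higher in set 3 (0.81) and lower in set 4 (-1.04), and Fxyd6 was lower in set 3 (-0.99), set S (-0.89) and set 6 (-0.52). Atp1b3 was lower in set S (-0.75), set 6 (-0.58), set 4 (-0.54) and set 3 (-0.33), each with an edgeR adjusted p under 0.05. Fxyd7 did not pass in set 3 (0.46, edgeR adjusted p = 0.11) or set S (0.06, edgeR adjusted p = 0.931). Summed neuronal markers stood at 9599 to 18600 CPM in set 6, 4030 to 11570 in set 4, 8036 to 16060 in set 3 and 9225 to 17360 in set S, against 2447 to 5726 CPM in set 1. Summed mature astrocyte markers stood at 1045 to 5090 CPM in set 6, 1916 to 31820 in set 4, 1305 to 17440 in set 3 and 1611 to 5162 in set S, against 6404 to 31420 CPM in set 1. These marker ranges take no account of age, and set S held P7 libraries alone. Over all sets, the summed mature astrocyte markers had a median of 3684 CPM at P7 and 22970 CPM in adults. The part of either marker list in the set differences was not tested.

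**Figure D4:**
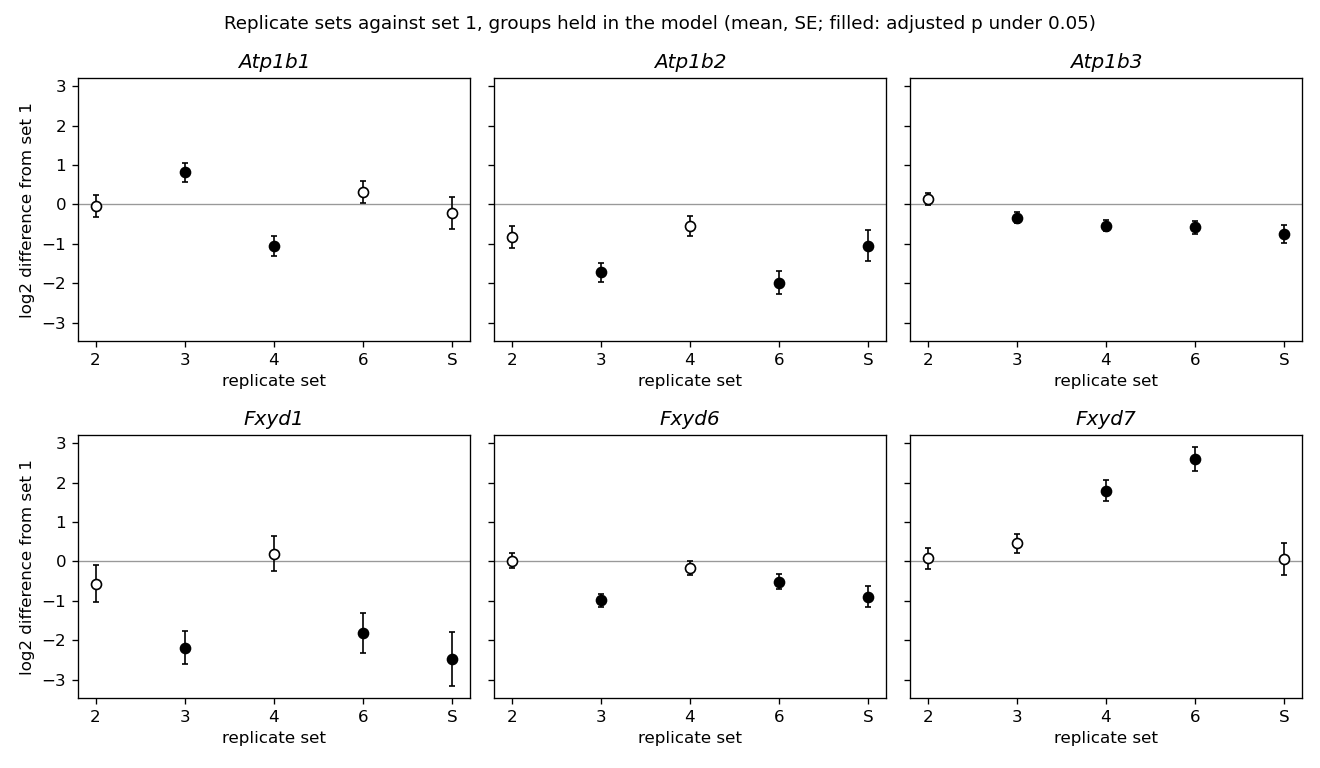
Points are the edgeR log2 differences of sets 2, 3, 4, 6 and S from set 1 with age and sex held in the model, and bars are SE. Fxyd7 stood 2.60 above set 1 in set 6, where Atp1b2 and Fxyd1 stood 1.98 and 1.81 below it.

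Adult minus P1 held its direction inside the sets. The 5 sets with both ages gave higher adult means in 5 of 5 for Atp1b2 (log2 differences 1.94 to 3.60), Fxyd1 (2.58 to 6.84), Atp1b1 (0.72 to 2.89) and Fxyd7 (1.25 to 1.73). The highest values for Fxyd1 and Atp1b1 were those of set 4, whose P1 libraries include P1 female 4, with few detected genes. That library had 0.703 CPM of Fxyd1 and 5.13 CPM of Atp1b1, against 36.7 and 35.7 CPM in P1 male 4. Fxyd6 was lower in adults in 5 of 5 sets, from -1.80 to -1.26. Atp1b3 was higher in 4 of 5, from -0.23 to 0.60, the exception being set 6 with 1 library at each age.

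Cell type markers were compared between adults and P1 as well, where 21.8% of all genes were higher and 19.5% lower. Of 22 measured mature astrocyte markers, 21 were higher in adults than at P1 and none lower, and their summed level was 5090 to 31820 CPM in adults and 1045 to 8062 CPM at P1. Slc1a2, the main glial glutamate transporter, averaged 1103 ± 359 CPM in adults and 80.1 ± 87.6 CPM at P1, and S100b 1039 ± 517 CPM and 21.4 ± 25.4 CPM. Of 27 neuronal markers, 17 were higher and 5 lower, with sums of 4264 to 18600 CPM in adults and 2447 to 12460 CPM at P1. All 16 myelin markers were higher (sums 850 to 2632 CPM in adults and 130 to 311 CPM at P1). Among the 8 oligodendrocyte progenitor markers 3 were higher and 2 lower, with sums of 322 to 600.3 CPM in adults and 324 to 1742 CPM at P1. Of 14 microglial markers 5 were higher and none lower (41.9 to 135 CPM in adults and 25.6 to 148 CPM at P1). Endothelial and mural markers gave 4 higher and 2 lower of 16 (52.8 to 206 CPM in adults and 52.8 to 133 CPM at P1), and choroid and ependymal markers 3 higher and 2 lower of 9 (18.4 to 675 CPM in adults and 34.1 to 217 CPM at P1). None of these markers was at 0 in most libraries, neurons' defining markers included, and the part of these cell types in the changes of the 6 genes was not tested. In a bulk pull-down, fewer cells of a type and less RNA per cell cannot be told apart.

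Other FXYD genes and proteins that bind the pump were taken from a list of 9, of which 8 were measured. In adult minus P1, 2 rose, 3 fell and 3 did not pass, with a median log2 difference of -0.26 against 0.06 for all genes, of which 21.8% were called higher and 19.5% lower. Nkain1, Nkain2 and Nkain3, members of a family of proteins that bind the pump, fell by 1.82, 1.65 and 2.08 on the log2 scale, while Nkain4 rose by 1.28. Of the remaining FXYD genes, Fxyd3 passed at 2.15 but averaged only 0.872 ± 0.852 CPM in adults and 0.224 ± 0.246 CPM at P1. Fxyd2, the gamma subunit of kidney, averaged 6.03 ± 4.73 CPM in adults and 10.6 ± 9.33 CPM at P1 and did not pass (-0.74), nor did Fxyd4 (1.61) and Fxyd5 (0.21). Per kilobase of exon, mean levels in adults were 75.3 CPM for Atp1b2, 58.0 for Atp1b1 and 25.7 for Atp1b3, and at P1 they were 12.2, 23.3 and 19.2 CPM in the same order.

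**Figure D5:**
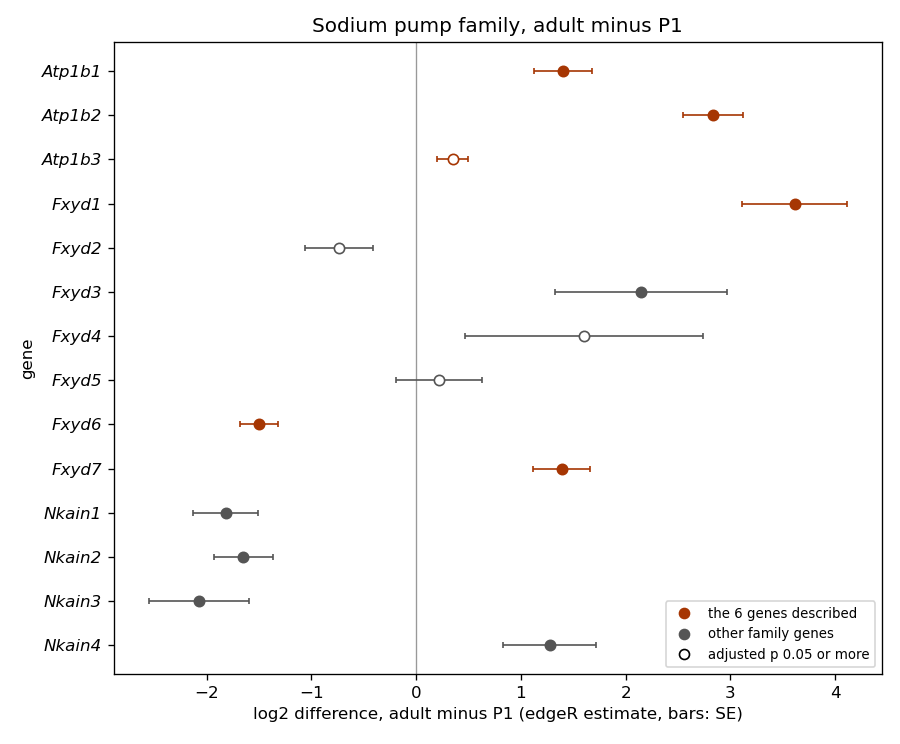
Points give the edgeR log2 difference, adult minus P1, for the 6 genes described and 8 other genes of the pump family, with SE bars and open points where the adjusted p was 0.05 or more. Fxyd1 (3.61) and Atp1b2 (2.84) lay furthest to the right, and Nkain3 (-2.08), Nkain1 (-1.82), Nkain2 (-1.65), Fxyd6 (-1.50) and, as an open point, Fxyd2 (-0.74) to the left of 0.

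Transporters that draw on the sodium gradient were described from a list of 17, all measured. In adult minus P1, 8 were higher, 2 lower and 7 did not pass, with a median log2 difference of 0.47, against 0.06 for all genes, of which 41.3% were called. By smallest p they were led by Slc1a2 (4.29 ± 0.34), the sodium bicarbonate cotransporter Slc4a4 (1.54 ± 0.23), the phosphate transporter Slc20a1 (1.85 ± 0.43) and the mitochondrial sodium calcium exchanger Slc8b1 (2.03 ± 0.49). Of 9 measured calcium and proton pumps, relatives of the sodium pump in the P-type ATPase family, 4 were higher and 1 lower, against the same 41.3% called of all genes. Those that rose were the plasma membrane calcium pumps Atp2b2 (2.46), Atp2b1 (1.58) and Atp2b4 (1.30) and the endoplasmic reticulum pump Atp2a2 (1.12).

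Most of the measured FXYD genes lie close together on chromosomes 7 and 9, and Fxyd4 lies apart on chromosome 6. Fxyd5, Fxyd7, Fxyd1 and Fxyd3 fall within 44.0 kilobases of chromosome 7 on the minus strand, with Fxyd7 at 31042513-31051467 and Fxyd1 at 31051678-31057199, 210 bases apart, so reads that run past the end of Fxyd1 into Fxyd7 cannot be told apart from those of Fxyd7. Fxyd5, 31 bases beyond Fxyd7 on the same strand, averaged 4.62 ± 2.16 CPM in adults and 3.95 ± 1.90 CPM at P1. On the other strand, Lgi4, 2142 bases beyond Fxyd1, differed by 4.33 ± 0.50 (edgeR adjusted p = 2.53e-09), with 22.1 CPM in adults and 1.57 CPM at P1. Fxyd2 begins 3509 bases beyond Fxyd6. Trp53, 7862 bases from Atp1b2, fell by 0.84 on the log2 scale (edgeR adjusted p = 8.77e-05).

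Across the 53 libraries, which share sets, depth and cell make-up, each gene was compared with 10898 genes of at least 5 CPM on average, and the closest are given as a description. Atp1b1 ran closest to Nptn (Pearson r = 0.956, n = 53), the gene of neuroplastin. Atp1b2 ran closest to Gpr37l1 (0.928), an astrocyte receptor, and Fxyd1 to Hist1h2bc (0.971), a histone gene, and Thrsp (0.961). Fxyd6 ran closest to Hes6 (0.909) and Cks1b (0.908), a cell cycle gene, and Fxyd7 to Rprml (0.936) and Ccl27a (0.933), with Nrgn, a neuronal calmodulin-binding protein, at 0.913. Atp1b3 had the weakest best match, Yipf4 (0.811). With the group and set means removed, the best matches were Nptn for Atp1b1 (0.892), Hes6 for Fxyd6 (0.721), Yipf4 for Atp1b3 (0.716), Cd81 for Atp1b2 (0.811), Isca2 for Fxyd1 (0.944) and Mgst3 for Fxyd7 (0.852). Between members, the highest r was 0.79 for Atp1b2 with Fxyd1, which was 0.34 with those means removed.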

How the data were processed

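Ribosome-bound RNA of cortical astroglia was sequenced in 53 mice, 1 library each. The deposited table holds raw counts (whole numbers) for 21118 genes. According to the submitters' processing notes, the authors made it with CASAVA, HISAT2, SAMtools and featureCounts on GRCm38.p5. Tool versions, the annotation release, whether counting used strand, and any filter on genes are not stated there. Per the labels' protocols, RNA with an integrity number above 8 was selected with oligo-dT beads. Of the P7 animals, 4 were sequenced in 2 runs and have 1 column each, used as deposited. Total counts ran from 14768178 to 48541139.

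Counts were tested by the quasi-likelihood F test of edgeR 4.0.16 (R 4.3.3, TMM, robust) in 1 model of 12 sex-by-age groups and 6 replicate sets, the set being the first character after the dash in a library's name. P-values were adjusted by Benjamini-Hochberg over all 21118 genes with a threshold of 0.05, and the filter on low counts removed 0 genes. CPM were computed on TMM-scaled library sizes, and SE are on the log2 scale. Log2 ratios used counts plus 0.5 and exon lengths from GENCODE M21, in which 21021 gene identifiers were found. Members were compared with all transcripts by BLAST 2.17.0 (at least 95% identity over 100 bases). Alternatives were limma 3.58.1 (voom), DESeq2 1.42.0, its size factors, other filters (stricter: 1 CPM in 20 libraries), an additive model, no set term, and libraries or sets left out. With 1 library left out, the dispersion trend of the full fit was kept. The fit and the ratio test were also run on simulated data that held no differences between replicate sets. That is a simpler setting than these data, and the outcome is not given here.

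The members and gene lists were chosen with earlier results of these data known. All 6 members are named, with every measured gene of the pump family list, up to 4 genes of each other list by smallest adjusted p, and up to 3 genes with the highest r to a member, predicted genes left out. P7, P14 and P35 against P1 were added after the data were examined. Promoter windows were taken from RefSeq (GRCm38.p6), which held 4 of the 6 genes. The pump gene Atp1b4 was not analysed here, and some genes first placed on the lists are not reported here. Replicates are separate animals by their labels, and litters are not named.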

Additional observations from a re-analysis of the deposited data

Results flagged for a closer look

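In 60 combinations of gene and group, a single library stood far from the rest of its group 8 times, where chance flags about 1 in 20 groups of like libraries. Each group mixes replicate sets, which differed in these genes, so that rate does not hold here as it stands. Atp1b1 was at 5.13 CPM in P1 female 4, against 99.8 to 116 CPM in the other P1 females. Atp1b2 was at 63.9 CPM in P14 female 6 (others 175 to 235 CPM) and at 114 CPM in adult female 3 (others 366 to 463 CPM). Atp1b3 was at 54.2 CPM in P4 male 2, above 36.8 to 37.9 CPM in the other P4 males. Fxyd6 was at 210.1 CPM in P1 male 3 (others 580.2 to 691 CPM) and at 80.2 CPM in adult female 3 (others 238 to 246 CPM). Fxyd7 was at 349.5 CPM in adult female 4 (others 58.9 to 75.6 CPM) and at 463 CPM in adult male 60 (others 74.9 to 115 CPM). The low values of Atp1b2 and Fxyd6 fell in libraries of sets 3 and 6, and the high values of Fxyd7 in sets 4 and 6.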

How the results depend on the processing

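Over 4602 values of the 6 genes under other settings, 4537 kept their side of the threshold and none that passed changed sign. Of them 34 no longer passed and 31 came to pass. The set number is not shown by the labels to mark a shared litter, batch or day. Between groups, the deviations of libraries with the same set number had a median r of 0.577 over 223 pairs (lowest -0.129), against -0.152 over 1055 pairs of different sets, and 44 of 53 libraries correlated best with their own set. With no replicate block, the age test of Atp1b3 gave an adjusted p of 0.111 and the log2 ratio of Atp1b2 to Atp1b1 was 1.25 (adjusted p = 0.14). Without the block, 0 members passed in P14 minus P7 and 0 in P7 minus P1, and adjusted p was 0.0525 for Atp1b1 in P14 minus P1 and 0.178 for Fxyd7 in P35 minus P1. Calls over all genes fell as well, for the age test to 5248.

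Adult minus P1 of Atp1b3 passed under 7 other settings: the additive model (0.34), DESeq2 (0.40), its size factors in edgeR (0.40), limma voom (0.35), a stricter filter (0.36), without set 4 (0.39) and without set 6 (0.41). Its age test gave adjusted p-values of 0.0893 without the libraries of doubtful sex and 0.226 without set 1. Members past the threshold in P14 minus P7 numbered 3 in the additive model and without set 6, 2 by DESeq2 and without the libraries with few detected genes, and 0 without set 1, 2 or 3, the libraries of doubtful sex or those named with the other sex's letter. In P7 minus P4 they numbered 2 by DESeq2, 1 by limma voom, 3 without the libraries with few detected genes and 1 without set 4, and in P7 minus P1 they numbered 2 without set 6. In the main model 3.3% of all genes passed in P14 minus P7, 1.67% in P7 minus P4 and 12.5% in P7 minus P1. The shares of all genes under the other settings are not given here.

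Leaving out 1 library at a time gave 0.278 to 0.420 for adult minus P1 of Atp1b3, 1.19 to 1.57 for Atp1b1, 2.66 to 3.02 for Atp1b2, 3.36 to 3.82 for Fxyd1, -1.59 to -1.41 for Fxyd6 and 1.20 to 1.68 for Fxyd7. It gave 0.993 to 1.702 for the ratio of Atp1b2 to Atp1b1. Members past the threshold numbered 0 to 3 in P14 minus P7, 0 to 1 in P7 minus P4, 2 to 4 in P7 minus P1 and 5 to 6 in adult minus P1. Of all genes, 8000 to 9064 passed in adult minus P1 with 1 library left out. In P14 minus P7, Atp1b2 came to pass without P14 female 1 (0.94) or P14 male 6 (0.95) and Fxyd6 without P14 male 6 (-0.60) or P7 male 6 (-0.77), and in P7 minus P4 Fxyd6 did so without P7 male 2 (-0.93). The causes were not tested. With 3 to 8 libraries a group, differences between sexes or neighbouring ages smaller than the intervals given were not detectable.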
